A study of Caenorhabditis elegans with 15 samples.

Results

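Loss of *sma-6*, which encodes a receptor, was compared with the wild type in whole Caenorhabditis elegans larvae at the L2 stage, an early larval stage. The comparison takes 10 of the 15 libraries of the study, chosen by genotype: 5 of the wild-type strain N2 (replicates 1 to 5) and 5 of *sma-6* mutants (replicates 1, 2, 3, 4 and 6). The other 5 libraries, of *sma-3* mutants, entered the expression filter, the statistical fit and the mean log2 CPM of each gene. Apart from that they are used below only to say where the mutants differ. All animals were kept at 20 °C on agar plates with E. coli as food, and poly-A RNA of whole larvae was sequenced in stranded libraries. The alleles, their number of outcrosses and the number of animals behind each library are not given in the sources used here. Loss of *sma-6* and other genetic differences between the strains therefore cannot be told apart in any change below. Nothing in the labels ties a replicate to a separate culture, so p-values measure the spread between these libraries, which may be partly technical.

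SMA-6 is the type I receptor of the DBL-1 pathway, the bone morphogenetic protein branch of TGF-beta signalling in this nematode. The ligand DBL-1 binds SMA-6 together with the type II receptor DAF-4. The receptors phosphorylate the Smad proteins SMA-2 and SMA-3, which enter the nucleus with SMA-4 and regulate transcription. The pathway is known for setting body size through the epidermis and its cuticle. It is also known for roles in fat storage, male tail patterning and defence against bacteria and fungi.

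Of 13720 genes tested, 892 (6.50%) had an adjusted p under 0.05 by edgeR's quasi-likelihood test, 411 higher (3.00%) and 481 lower (3.51%) in *sma-6* mutants. These genes are called changed below, and the percentages are the background for every count of a gene list. At least a 1.5-fold change was fitted for 193 of the higher and 140 of the lower genes. Libraries of the genotypes did not overlap for 1130 genes (8.24%), 512 higher (3.73%) and 618 lower (4.50%), and 686 of the called genes were among them. Of the called genes, 523 also differed between *sma-6* and *sma-3* mutants in the direct test of that difference. The same *sma-6* libraries enter both tests, which favours overlap, and the share over all genes is not given here. This count is therefore not a finding about the receptor. Depth ran from 16.5 to 48.3 M counts per library. Wild-type replicate 5 stood apart on the first principal component of the 10 libraries, at -33.0, against -14.1 to -10.7 for the rest of the wild type. The sample-sheet numbers run in separate blocks for the genotypes, so library order and genotype cannot be told apart. In whole animals, fewer cells of a type and less RNA per cell cannot be told apart.

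The labels were checked first on the mutated gene. *sma-6* (WBGene00004860; WBcel235 chromosome II, 6324484 to 6327355, plus strand, protein-coding) stood at 43.3, 44.1, 40.3, 47.7 and 37.2 CPM in wild-type replicates 1 to 5 and at 8.83, 9.12, 9.73, 9.21 and 9.75 CPM in *sma-6* replicates 1, 2, 3, 4 and 6. The log2 fold change by edgeR was -2.19 ± 0.07 (SE, adjusted p = 9.69e-13), and the groups did not overlap. CPM are counts scaled to library size with TMM factors, and n = 5 libraries per genotype throughout. Values in libraries below follow this order of replicates.

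Of 24 members of the DBL-1 pathway list tested, 2 were higher and 2 lower, *sma-6* included. That is 16.7% called against 6.50% of all genes, and the median log2 fold change was 0.01. The Smad gene *sma-2* stood at 16.2, 18.1, 19.3, 19.3 and 18.9 CPM in the wild type and 10.3, 8.40, 9.83, 8.94 and 10.7 CPM in the mutants. All mutant libraries lay below all wild-type libraries (log2 fold change -0.93 ± 0.10 SE, edgeR adjusted p = 7.83e-06). *sma-10*, which encodes a transmembrane protein that promotes signalling, stood at 35.7, 38.1, 26.3, 39.8 and 32.7 CPM in the wild type and 48.1, 54.6, 51.8, 72.1 and 48.3 CPM in the mutants. It was higher in every mutant library (log2 fold change 0.67 ± 0.12 SE, edgeR adjusted p = 0.00248), with replicate 4 highest. *lon-1*, which encodes a secreted protein that restricts body length and is repressed by the pathway, stood at 105, 104, 128, 120.1 and 137 CPM in the wild type and 180.3, 169.7, 172, 169 and 165 CPM in the mutants. Its mutant libraries also lay above all wild-type libraries (log2 fold change 0.53 ± 0.08 SE, edgeR adjusted p = 0.000291).

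The remaining receptor, ligand and Smad genes did not pass. The ligand gene *dbl-1* was at 25.2 ± 0.719 CPM (SD) in the wild type and 29.1 ± 6.04 CPM (SD) in the mutants, with replicate 4 at 39.8 CPM and the other mutant libraries between 25.5 and 27.5 CPM (log2 fold change 0.21 ± 0.11 SE, edgeR adjusted p = 0.281). The type II receptor gene *daf-4* was at 72.2 ± 2.92 CPM (SD) in the wild type and 75.2 ± 7.35 CPM (SD) in the mutants, and the groups overlapped (log2 fold change 0.06 ± 0.07 SE, edgeR adjusted p = 0.662). For the Smad genes *sma-3* and *sma-4* the fold changes on the log2 scale were -0.19 and 0.09 (edgeR adjusted p = 0.224 and 0.494), and for *sma-9*, a Schnurri homolog that acts with the Smads, 0.11 (edgeR adjusted p = 0.507). In *adt-2*, a secreted metalloprotease gene, and in *mab-31* the groups did not overlap although neither passed (log2 fold change 0.14 ± 0.05 SE, edgeR adjusted p = 0.113 for the first and log2 fold change -0.17 ± 0.06 SE, edgeR adjusted p = 0.0679 for the second). The dauer branch of TGF-beta signalling had 0 of 6 members called in edgeR, DESeq2 or limma-voom, 0 at an unadjusted edgeR p under 0.05, and a median of 0.01.

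The largest rises included a lipase gene, an aspartyl protease gene, a gene for a fatty acid and retinol binding protein and genes of antimicrobial defence. Called genes without overlap and with a mean log2 CPM of 1 or more over all 15 libraries were ranked by fold change. The first 12 rises were, from the largest, *lips-11* and *Y69H2.9*, then *asp-12*, *far-3*, *cnc-2*, *T22F3.11*, *clec-70*, *ech-9*, *C15A11.7*, *C32H11.4*, *lys-10* and *F49F1.7*. The 12 falls were in *srw-85*, *wrt-1*, *F26G1.11*, *C44C1.6*, *sma-6* itself, *C45B2.8*, *F17B5.1*, *C49G7.10*, *C30B5.6*, *tag-293*, *fat-7* and *ZC168.2*. This rule takes no gene whose libraries overlap, so the absence of overlap among these 24 is not a finding.

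**Figure D1:**
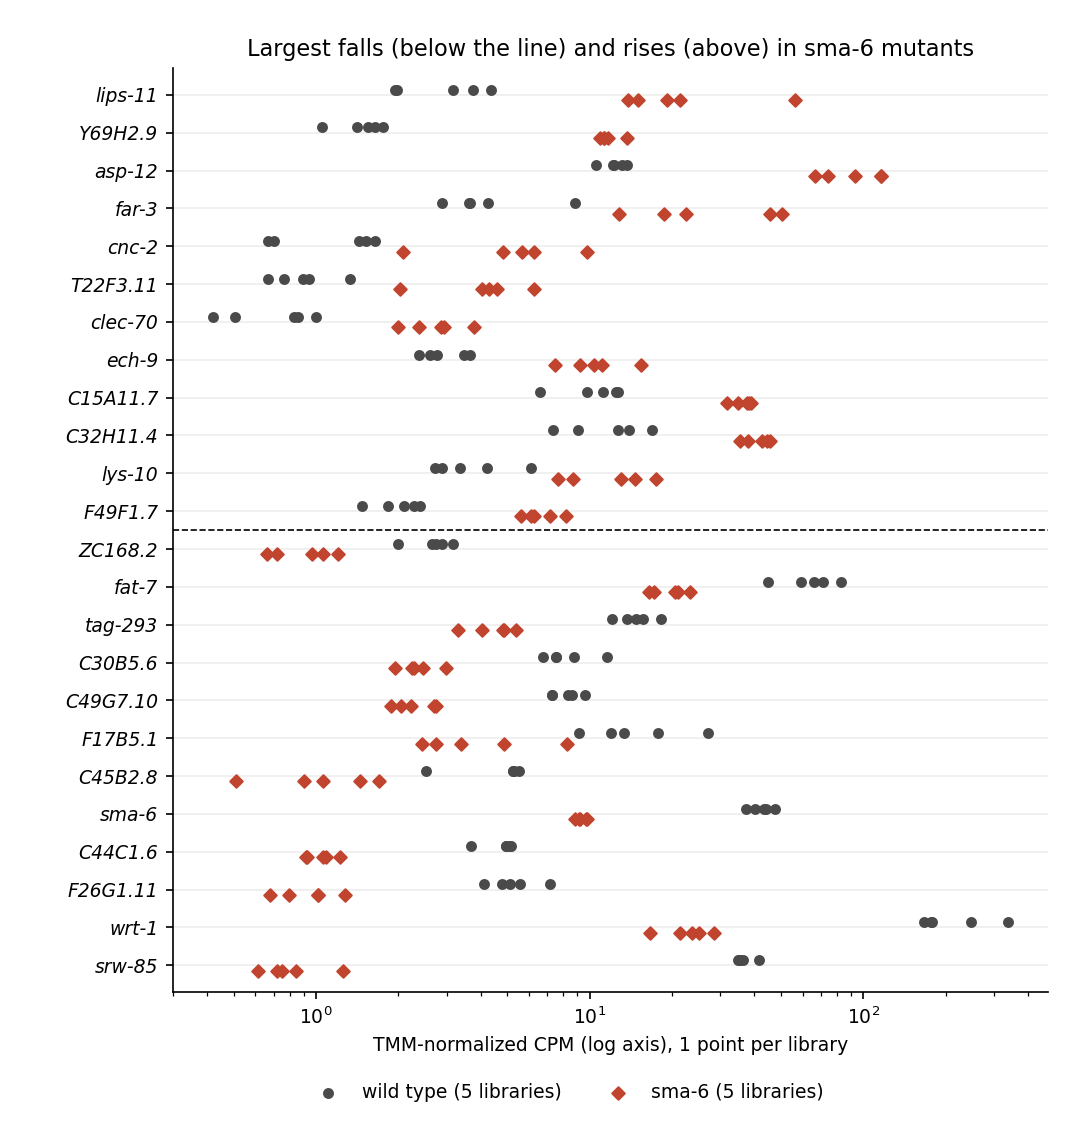
TMM-normalized CPM on a log axis for the 12 largest falls (below the line) and the 12 largest rises (above the line), with 1 point per library, 5 wild-type and 5 *sma-6*. Points of the genotypes lie apart in every row because the choice of genes required it, with *srw-85* at 34.9 to 41.6 CPM in the wild type and 0.611 to 1.26 CPM in the mutants.

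Several of the rises were uneven between mutant libraries. *lips-11*, of the lipase family, stood at 3.16, 1.98, 1.93, 4.36 and 3.75 CPM in the wild type and 56.3, 15.04, 19.2, 21.5 and 13.8 CPM in the mutants, and replicate 1 lay far above the other mutant libraries. *far-3*, which encodes a fatty acid and retinol binding protein, stood at 8.80, 4.24, 3.61, 3.67 and 2.87 CPM in the wild type and 22.5, 18.7, 45.5, 12.8 and 50.3 CPM in the mutants, with replicates 3 and 6 highest. *asp-12*, an aspartyl protease gene, was more even, at 12.3, 12.2, 10.6, 13.1 and 13.7 CPM in the wild type and 93.2, 66.7, 116, 74.4 and 116 CPM in the mutants. *Y69H2.9* was more even still, at 1.05, 1.54, 1.41, 1.64 and 1.76 CPM in the wild type and 11.3, 11.3, 11.7, 13.7 and 10.9 CPM in the mutants. *lips-11* and *far-3* were higher in *sma-6* mutants than in those of *sma-3* (log2 difference 2.87, edgeR adjusted p = 0.000120 and log2 difference 2.80, edgeR adjusted p = 0.000727). For *asp-12* and *Y69H2.9* that direct test did not pass (log2 difference -0.01, edgeR adjusted p = 0.982 and log2 difference 0.22, edgeR adjusted p = 0.144).

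Called genes of fatty acid desaturation and elongation were all lower, and those of other lipid steps split. Of 7 desaturase genes tested 0 were higher and 2 lower, and of 7 elongase genes tested 0 were higher and 3 lower, against 3.51% lower over all genes. *fat-7*, a stearoyl-CoA desaturase that makes oleic acid, stood at 71.3, 83.0, 59.2, 66.2 and 44.8 CPM in the wild type and 17.2, 23.3, 16.5, 20.4 and 20.95 CPM in the mutants. The mutant mean was 30.3% of the wild-type mean (log2 fold change -1.72 ± 0.16 SE, edgeR adjusted p = 1.28e-06). Its close paralog *fat-6* stood at 413, 424, 409, 429 and 369.9 CPM in the wild type and 344, 345, 364, 288 and 385 CPM in the mutants, and the groups overlapped (log2 fold change -0.24 ± 0.07 SE, edgeR adjusted p = 0.0453). Reads from stretches that both paralogs share could be split between them in counting. The *fat-6* call was absent in 8 of the 10 fits that left out 1 library, all but those without wild-type replicate 5 or *sma-6* replicate 6.

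Among the elongases *elo-5*, which makes monomethyl branched-chain fatty acids, stood at 293, 306, 282, 284 and 268 CPM in the wild type and 243, 210.0, 206, 125 and 219.6 CPM in the mutants. All mutant libraries were lower, with replicate 4 lowest (log2 fold change -0.51 ± 0.12 SE, edgeR adjusted p = 0.0115). *elo-2*, an elongase of palmitic acid, was at 362 ± 39.4 CPM (SD) in the wild type and 271 ± 51.1 CPM (SD) in the mutants (log2 fold change -0.42 ± 0.11 SE, edgeR adjusted p = 0.0264), and its call was absent without any 1 of wild-type replicates 1 to 4 or *sma-6* replicate 3, with an adjusted p of at most 0.064. *elo-9* was at 25.8 ± 1.38 CPM (SD) in the wild type and 20.4 ± 1.40 CPM (SD) in the mutants, with no overlap (log2 fold change -0.34 ± 0.07 SE, edgeR adjusted p = 0.00600). The median log2 fold change was 0.00 over the desaturases and -0.20 over the elongases, against 0.01 over all genes.

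Acyl-CoA synthetase genes had 0 of 17 higher and 2 lower, *acs-4* (log2 fold change -0.40 ± 0.07 SE, edgeR adjusted p = 0.000930) and *acs-19* (log2 fold change -0.29 ± 0.07 SE, edgeR adjusted p = 0.0196). The *acs-19* call was absent without wild-type replicate 3. Beta-oxidation genes split, with 2 of 31 higher and 2 lower. *ech-9*, of the enoyl-CoA hydratase family, stood at 2.38, 2.78, 2.61, 3.67 and 3.46 CPM in the wild type and 15.4, 7.45, 9.22, 10.4 and 11.103 CPM in the mutants, higher in every mutant library (log2 fold change 1.85 ± 0.17 SE, edgeR adjusted p = 1.68e-06). *hacd-1*, of the hydroxyacyl-CoA dehydrogenase family, stood at 86.1, 88.9, 96.5, 77.99 and 69.3 CPM in the wild type and 54.3, 48.5, 32.1, 32.5 and 55.3 CPM in the mutants, and every mutant library was lower (log2 fold change -0.91 ± 0.15 SE, edgeR adjusted p = 0.00102). *ech-7* also fell (log2 fold change -0.57 ± 0.10 SE, edgeR adjusted p = 0.00270), while *acdh-12*, an acyl-CoA dehydrogenase gene, was slightly higher (log2 fold change 0.24 ± 0.06 SE, edgeR adjusted p = 0.0194). The *acdh-12* call was absent without wild-type replicates 1 or 3 or *sma-6* replicate 6.

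Lipid carriers split as well. Of 7 genes for fatty acid and retinol binding proteins tested, 2 were higher, *far-3* and *far-5* (log2 fold change 0.57 ± 0.15 SE, edgeR adjusted p = 0.0282), and 0 lower. Of 9 intracellular lipid binding protein genes, *lbp-8* was higher (log2 fold change 0.85 ± 0.24 SE, edgeR adjusted p = 0.0441) and *lbp-6* lower (log2 fold change -0.32 ± 0.08 SE, edgeR adjusted p = 0.0237). The *far-5* call was absent in 4 and the *lbp-8* call in 8 of the 10 fits without a library. Of 18 lipase genes, *lips-11* was higher and *lips-17* lower (log2 fold change -0.66 ± 0.13 SE, edgeR adjusted p = 0.00483).

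**Figure D2:**
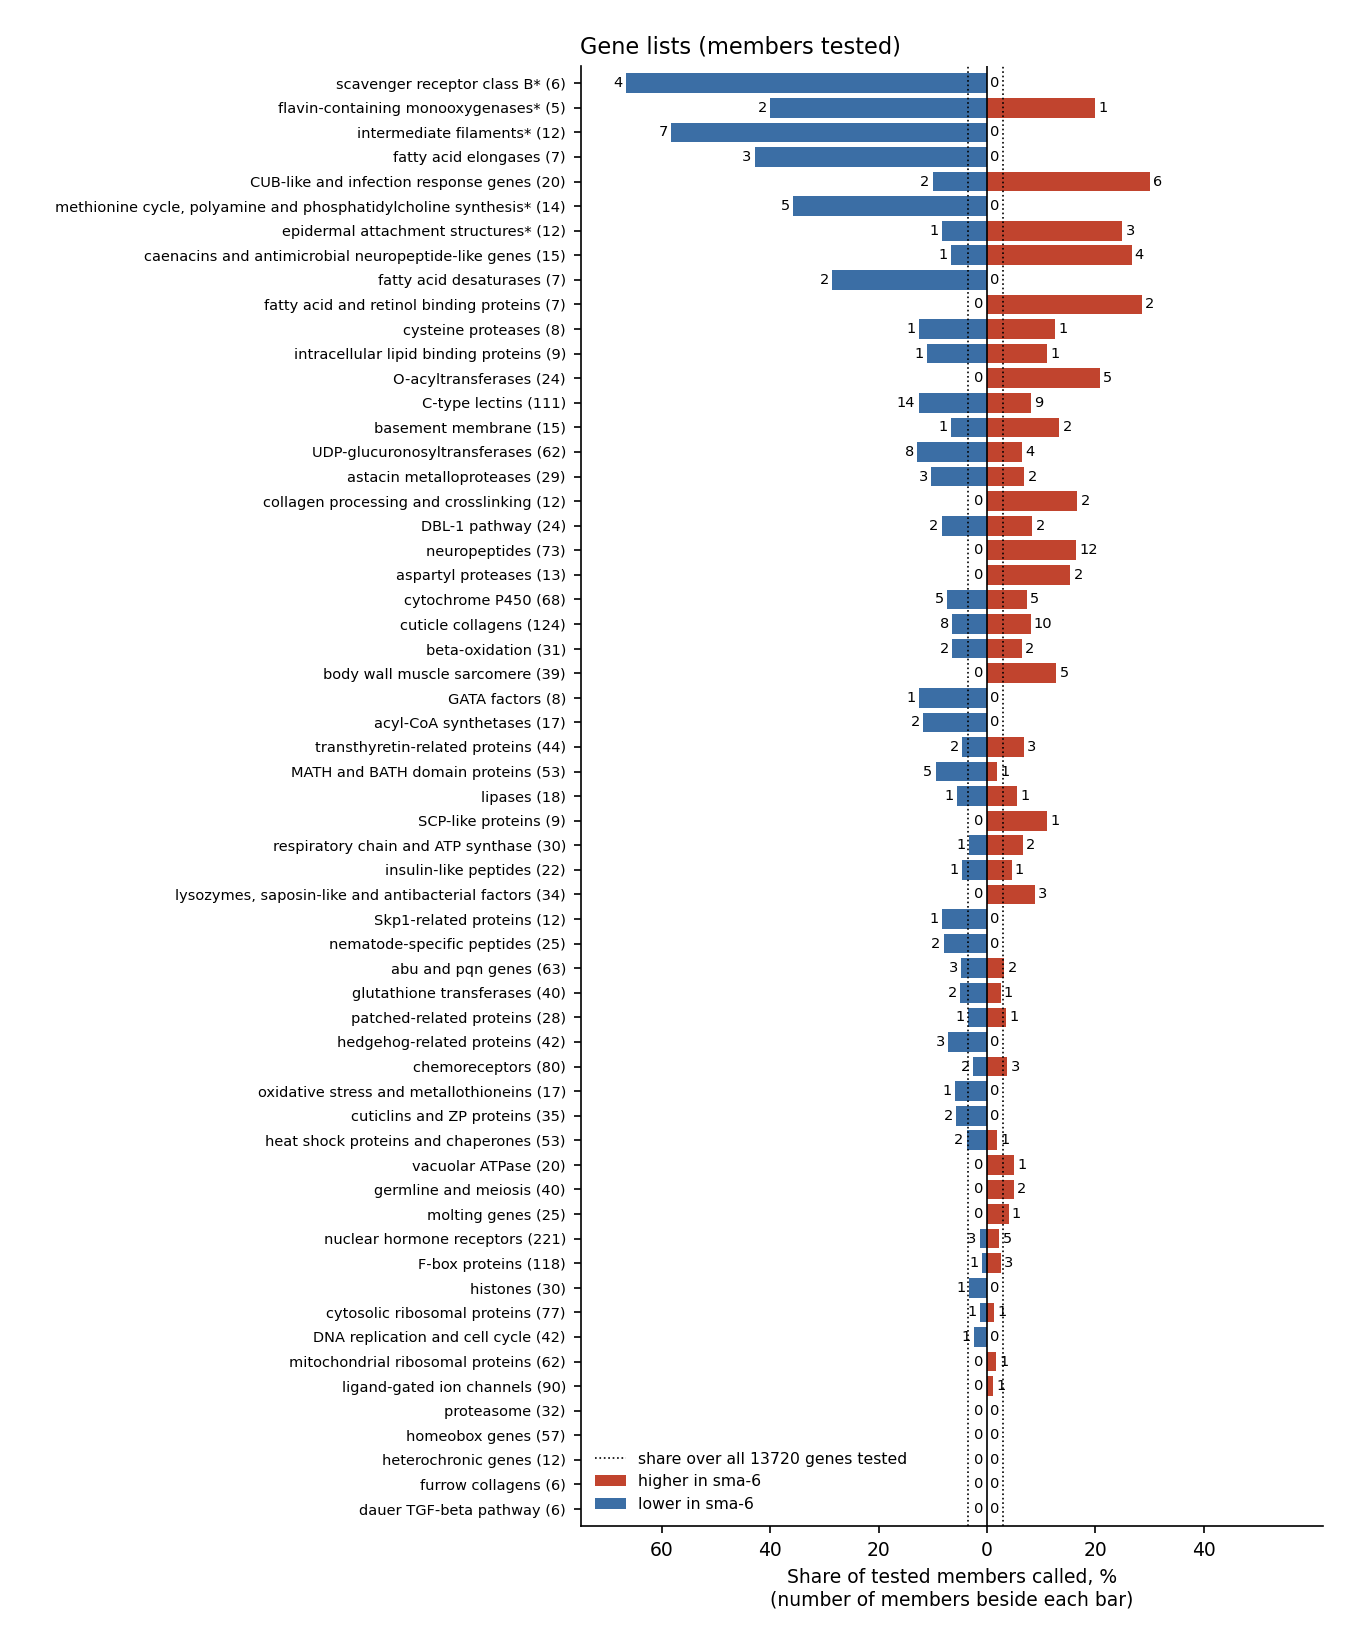
Share of tested members called higher (red, right) or lower (blue, left) in *sma-6* mutants, for every list with at least 5 members tested, with the number of members beside each bar and the number tested in brackets. Dotted lines are the shares over all 13720 genes tested, 3.00% higher and 3.51% lower, and an asterisk marks the lists chosen after gene values had been seen.

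Called genes of the response to infection were mostly higher. Of 20 tested members of the list of CUB-like and infection response genes (24 in the table), 6 were higher and 2 lower, against 3.00% and 3.51% of all genes, and the median log2 fold change was 0.41. *C32H11.4*, a CUB-like gene, stood at 16.9, 13.9, 7.32, 12.703 and 9.09 CPM in the wild type and 44.6, 42.5, 37.8, 35.4 and 45.7 CPM in the mutants. All mutant libraries were higher, and the direct difference from *sma-3* mutants did not pass (log2 fold change 1.77 ± 0.17 SE, edgeR adjusted p = 2.73e-06 against the wild type, log2 difference -0.25, edgeR adjusted p = 0.263 against *sma-3*). *F49F1.7* stood at 2.27, 2.40, 2.09, 1.83 and 1.47 CPM in the wild type and 5.61, 7.13, 6.27, 6.08 and 8.21 CPM in the mutants, and *F49F1.1*, also on chromosome IV, at 1.38, 2.21, 1.88, 1.64 and 1.94 CPM in the wild type and 5.34, 5.24, 5.30, 3.96 and 4.97 CPM in the mutants. Both were higher in every mutant library (log2 fold change 1.70 ± 0.16 SE, edgeR adjusted p = 1.68e-06 and log2 fold change 1.42 ± 0.16 SE, edgeR adjusted p = 1.62e-05), and both were higher in *sma-6* mutants than in those of *sma-3* (log2 difference 1.83, edgeR adjusted p = 8.50e-07 and log2 difference 1.44, edgeR adjusted p = 2.00e-05). *F49F1.5*, *dod-22* and *C32H11.1* were the other rises, by 1.15, 0.85 and 0.97 on the log2 scale (edgeR adjusted p = 0.000606, 0.00422 and 0.0337), the last absent in 7 of the 10 fits without a library. *dod-17* and *irg-2* went the other way (log2 fold change -0.54 ± 0.10 SE, edgeR adjusted p = 0.00164 and log2 fold change -1.497 ± 0.37 SE, edgeR adjusted p = 0.0203), and the *irg-2* call was absent without wild-type replicate 5. *T24B8.5*, an ShK-domain peptide gene used as a reporter of p38 MAP kinase signalling, is on no list and was chosen after its values were seen. It stood at 2.88, 3.11, 4.03, 3.03 and 2.93 CPM in the wild type and 11.7, 12.3, 8.30, 9.87 and 9.46 CPM in the mutants (log2 fold change 1.69 ± 0.14 SE, edgeR adjusted p = 2.38e-07).

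Genes for antimicrobial peptides and lysozymes had smaller counts of calls. Of 15 caenacin and antimicrobial neuropeptide-like genes tested, 4 were higher and 1 lower, 33.3% called against 6.50% of all genes. The median log2 fold change of that list was -0.05. *cnc-2* stood at 1.44, 0.668, 1.52, 1.64 and 0.704 CPM in the wild type and 5.66, 4.83, 6.27, 2.07 and 9.75 CPM in the mutants, and its counts were low in both genotypes (log2 fold change 2.32 ± 0.34 SE, edgeR adjusted p = 0.000335). *nlp-27* stood at 31.1, 23.7, 36.1, 30.3 and 19.8 CPM in the wild type and 54.5, 46.6, 51.3, 36.9 and 65.7 CPM in the mutants, higher in every mutant library (log2 fold change 0.86 ± 0.18 SE, edgeR adjusted p = 0.00794). *nlp-28* and *cnc-3* rose by 0.71 and 0.56 on the log2 scale (edgeR adjusted p = 0.0263 and 0.0473). The *nlp-28* call was absent in 4 and the *cnc-3* call in 7 of the 10 fits without a library. Both were absent without wild-type replicate 2 or *sma-6* replicate 2, where the count of higher genes was 2. *cnc-4* stood at 27.5, 26.6, 38.4, 24.7 and 16.7 CPM in the wild type and 6.24, 8.76, 8.20, 17.4 and 11.05 CPM in the mutants, lower in the mutants with 1 library inside the wild-type range (log2 fold change -1.37 ± 0.29 SE, edgeR adjusted p = 0.00816). Of 34 lysozyme, saposin-like and antibacterial factor genes, 3 were higher and 0 lower. That is 8.82% called, near the 6.50% of all genes, with a median log2 fold change of 0.09. *lys-10* stood at 2.88, 2.71, 6.12, 3.35 and 4.22 CPM in the wild type and 13.1, 17.5, 8.71, 14.6 and 7.68 CPM in the mutants (log2 fold change 1.70 ± 0.27 SE, edgeR adjusted p = 0.000586). *ilys-2*, an invertebrate-type lysozyme gene, and *lys-7* were also higher (log2 fold change 1.65 ± 0.29 SE, edgeR adjusted p = 0.00190 and log2 fold change 0.98 ± 0.19 SE, edgeR adjusted p = 0.00454), although the *lys-7* libraries overlapped.

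C-type lectin genes, which encode secreted carbohydrate binding proteins often tied to defence, moved both ways. Of 111 tested (147 in the table), 9 were higher and 14 lower, 20.7% against 6.50% of all genes, with a median of -0.06. *clec-70* stood at 0.830, 0.856, 0.418, 0.506 and 0.997 CPM in the wild type and 2.86, 1.99, 3.77, 2.38 and 2.94 CPM in the mutants, and *clec-17* at 22.3, 20.5, 28.2, 19.3 and 18.2 CPM in the wild type and 48.7, 55.5, 32.9, 53.9 and 48.2 CPM in the mutants. Both were higher in every mutant library (log2 fold change 1.90 ± 0.23 SE, edgeR adjusted p = 4.43e-05 and log2 fold change 1.14 ± 0.13 SE, edgeR adjusted p = 2.18e-05). *clec-5* stood at 26.3, 31.9, 24.2, 22.6 and 32.4 CPM in the wild type and 14.2, 13.004, 11.8, 11.3 and 11.9 CPM in the mutants, and *clec-10* at 40.97, 49.5, 57.7, 42.2 and 56.2 CPM in the wild type and 29.03, 28.9, 20.3, 23.3 and 25.5 CPM in the mutants. Both were lower in every mutant library (log2 fold change -1.15 ± 0.12 SE, edgeR adjusted p = 9.62e-06 and log2 fold change -0.96 ± 0.12 SE, edgeR adjusted p = 7.25e-05), and *clec-170* fell as well (log2 fold change -0.85 ± 0.09 SE, edgeR adjusted p = 1.60e-05). Members of this family have similar sequences, so reads shared between copies make single values uncertain.

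Among digestive proteases, *asp-10* rose with *asp-12* (log2 fold change 0.72 ± 0.11 SE, edgeR adjusted p = 0.000654), the 2 called of 13 aspartyl protease genes tested. Of 8 cysteine protease genes, the cathepsin B gene *cpr-4* was higher (log2 fold change 0.41 ± 0.11 SE, edgeR adjusted p = 0.0247) and the cathepsin Z gene *cpz-2* lower (log2 fold change -0.33 ± 0.05 SE, edgeR adjusted p = 0.000791). The *cpr-4* call was absent without wild-type replicates 1 or 2 or *sma-6* replicates 1 or 4. Without *sma-6* replicate 1, aspartyl proteases also had 3 lower members.

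Cuticle collagens, the main structural proteins of the cuticle, moved both ways. Of 124 tested (153 in the table), 10 were higher and 8 lower, with a median log2 fold change of -0.12. *col-97* stood at 415, 395, 428, 369 and 295 CPM in the wild type and 273, 245, 171, 284 and 274 CPM in the mutants, and *col-14* was at 460.3 ± 31.04 CPM (SD) in the wild type and 291 ± 63.7 CPM (SD) in the mutants. All mutant libraries of both were lower (log2 fold change -0.61 ± 0.13 SE, edgeR adjusted p = 0.00616 and log2 fold change -0.66 ± 0.14 SE, edgeR adjusted p = 0.00813). *col-91* stood at 38.8, 42.4, 43.6, 40.1 and 32.2 CPM in the wild type and 64.8, 71.9, 45.2, 73.2 and 72.6 CPM in the mutants, higher in every mutant library (log2 fold change 0.73 ± 0.15 SE, edgeR adjusted p = 0.00556), and *col-162* was also higher (log2 fold change 0.61 ± 0.12 SE, edgeR adjusted p = 0.00541). *rol-6*, whose dominant alleles make worms roll, was at 1097 ± 319.6 CPM (SD) in the wild type and 758 ± 58.9 CPM (SD) in the mutants (log2 fold change -0.53 ± 0.14 SE, edgeR adjusted p = 0.0256). Wild-type replicates 3 and 5 carried its highest values, and its call was absent without wild-type replicate 3 or *sma-6* replicate 2. *col-182*, annotated as a pseudogene in WBcel235, had the smallest p of the falls (log2 fold change -0.74 ± 0.12 SE, edgeR adjusted p = 0.00101). The balance of the collagens depended on single libraries. It was 7 higher and 12 lower without *sma-6* replicate 1, and 5 higher and 10 lower without *sma-6* replicate 6. Without wild-type replicate 3 the lower count was 5. The 6 collagens of the annular furrows had 0 called in edgeR, DESeq2 or limma-voom, 0 at an unadjusted edgeR p under 0.05, and a median of 0.07.

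Other genes of the cuticle and epidermis changed one by one. *dpy-31*, an astacin protease gene that processes collagens, was higher (log2 fold change 0.24 ± 0.06 SE, edgeR adjusted p = 0.0211), and of 35 cuticlin and zona pellucida protein genes 0 were higher and 2 lower, *cutl-15* and *cutl-4*. The *cutl-4* call was absent in 8 of the 10 fits without a library, and the lower count was 1 in 7 of them. Of 29 astacin metalloprotease genes tested, 2 were higher and 3 lower, with a median of -0.13. *nas-38* stood at 143, 135, 144, 127 and 119.2 CPM in the wild type and 70.3, 74.0, 50.2, 82.0 and 91.4 CPM in the mutants, lower in every mutant library (log2 fold change -0.86 ± 0.14 SE, edgeR adjusted p = 0.00103). *nas-10* fell from 1.998 ± 0.824 CPM (SD) in the wild type to 0.257 ± 0.299 CPM (SD) in the mutants, with 0 counts in mutant replicate 3 (log2 fold change -2.89 ± 0.57 SE, edgeR adjusted p = 0.00425), and *nas-27* rose (log2 fold change 1.64 ± 0.27 SE, edgeR adjusted p = 0.00102).

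Hedgehog-related genes had 0 of 42 higher and 3 lower. That is 7.14% called, near the 6.50% of all genes, with a median log2 fold change of -0.07. These genes encode secreted proteins of the epidermis, expanded in nematodes. *wrt-1* stood at 167, 179, 249, 177 and 338 CPM in the wild type and 25.2, 21.4, 28.5, 16.6 and 23.7 CPM in the mutants. The mutant mean was 10.4% of the wild-type mean, and the groups did not overlap. *grl-4* stood at 299, 245, 244, 299.9 and 213 CPM in the wild type and 135, 129.8, 78.3, 153 and 156 CPM in the mutants, and all mutant libraries were lower (log2 fold change -0.99 ± 0.17 SE, edgeR adjusted p = 0.00151). *wrt-8* overlapped between the genotypes (log2 fold change -0.83 ± 0.21 SE, edgeR adjusted p = 0.0195), and its call was absent without *sma-6* replicate 2. All 3 were lower in *sma-6* mutants than in those of *sma-3*, with adjusted p of 1.16e-09 for *wrt-1*, 0.00104 for *grl-4* and 0.00257 for *wrt-8*. Of 28 patched-related genes, *ptr-22* was higher (log2 fold change 1.16 ± 0.26 SE, edgeR adjusted p = 0.0114) and *ptr-1* lower (log2 fold change -0.45 ± 0.10 SE, edgeR adjusted p = 0.00866). Molting genes had 1 of 25 higher, *lrp-1*, a megalin-like receptor gene (log2 fold change 0.58 ± 0.12 SE, edgeR adjusted p = 0.00536). Its call was absent with a trend on exon length removed, an alternative described below (edgeR adjusted p = 0.0734). The 57 homeobox genes tested had 0 called in edgeR, 0 in limma-voom and 1 in DESeq2, with 4 at an unadjusted edgeR p under 0.05. The 12 heterochronic genes had 0 called in all 3 tools and 3 at that unadjusted p.

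Neuropeptide genes were called in 1 direction. Of 73 tested (75 in the table), 12 were higher and 0 lower, against 3.00% and 3.51% of all genes, with a median log2 fold change of 0.15. Of the 12, *nlp-27* and *nlp-28* are epidermal antimicrobial peptides and stand on that list too. *nlp-20* stood at 7.75, 9.97, 11.5, 11.06 and 9.27 CPM in the wild type and 14.9, 16.4, 13.5, 15.4 and 16.4 CPM in the mutants, higher in every mutant library (log2 fold change 0.63 ± 0.11 SE, edgeR adjusted p = 0.00152). *pdf-1*, which encodes pigment dispersing factor peptides that act on locomotion, stood at 54.8, 60.9, 63.9, 56.4 and 57.5 CPM in the wild type and 90.3, 91.5, 64.6, 91.1 and 82.5 CPM in the mutants, and the groups did not overlap (log2 fold change 0.52 ± 0.09 SE, edgeR adjusted p = 0.00226). The FMRFamide-related genes *flp-15*, *flp-14*, *flp-9* and *flp-3* rose by 0.39, 0.33, 0.27 and 0.27 on the log2 scale (edgeR adjusted p = 0.043, 0.0187, 0.0273 and 0.0492). In *flp-14* the value of mutant replicate 3 was 58.4 CPM, within the wild-type range of 48.8 to 62.5 CPM, while the other mutant libraries lay between 66.8 and 70.0 CPM. The count depended on single libraries. It was 5, 7 and 5 without wild-type replicates 1, 4 and 5, and 4, 5 and 6 without *sma-6* replicates 2, 4 and 6. Without *sma-6* replicate 3 it was 18. The 7 general neuron markers, among them *rab-3* and *unc-119*, had 0 called in edgeR, DESeq2 or limma-voom and 0 at an unadjusted edgeR p under 0.05, and their summed level was 911 to 971 CPM in the wild type and 829 to 996 CPM in the mutants.

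Other signalling genes were called singly. Of 22 insulin-like peptide genes, *ins-33* was higher, at 14.2, 16.9, 18.1, 17.1 and 11.6 CPM in the wild type and 22.2, 24.9, 21.4, 26.3 and 29.4 CPM in the mutants (log2 fold change 0.67 ± 0.15 SE, edgeR adjusted p = 0.0115). *ins-35* was lower, at 18.8, 19.4, 19.98, 19.7 and 20.8 CPM in the wild type and 15.1, 15.4, 11.6, 11.0999 and 13.2 CPM in the mutants (log2 fold change -0.57 ± 0.11 SE, edgeR adjusted p = 0.00478). Of 520 chemoreceptor genes listed, 80 were tested, 3 higher and 2 lower. The log2 fold change was above 0 in 60 of the 80 and below 0 in 20, with a median of 0.18. *srw-85*, of this family, had from 12 to 26 counts in the mutant libraries, and *sre-14* rose within the chromosome IV segment described below. Of 90 ligand-gated ion channel genes 1 was higher and 0 lower, and that call was absent in 7 of the 10 fits without a library.

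**Figure D3:**
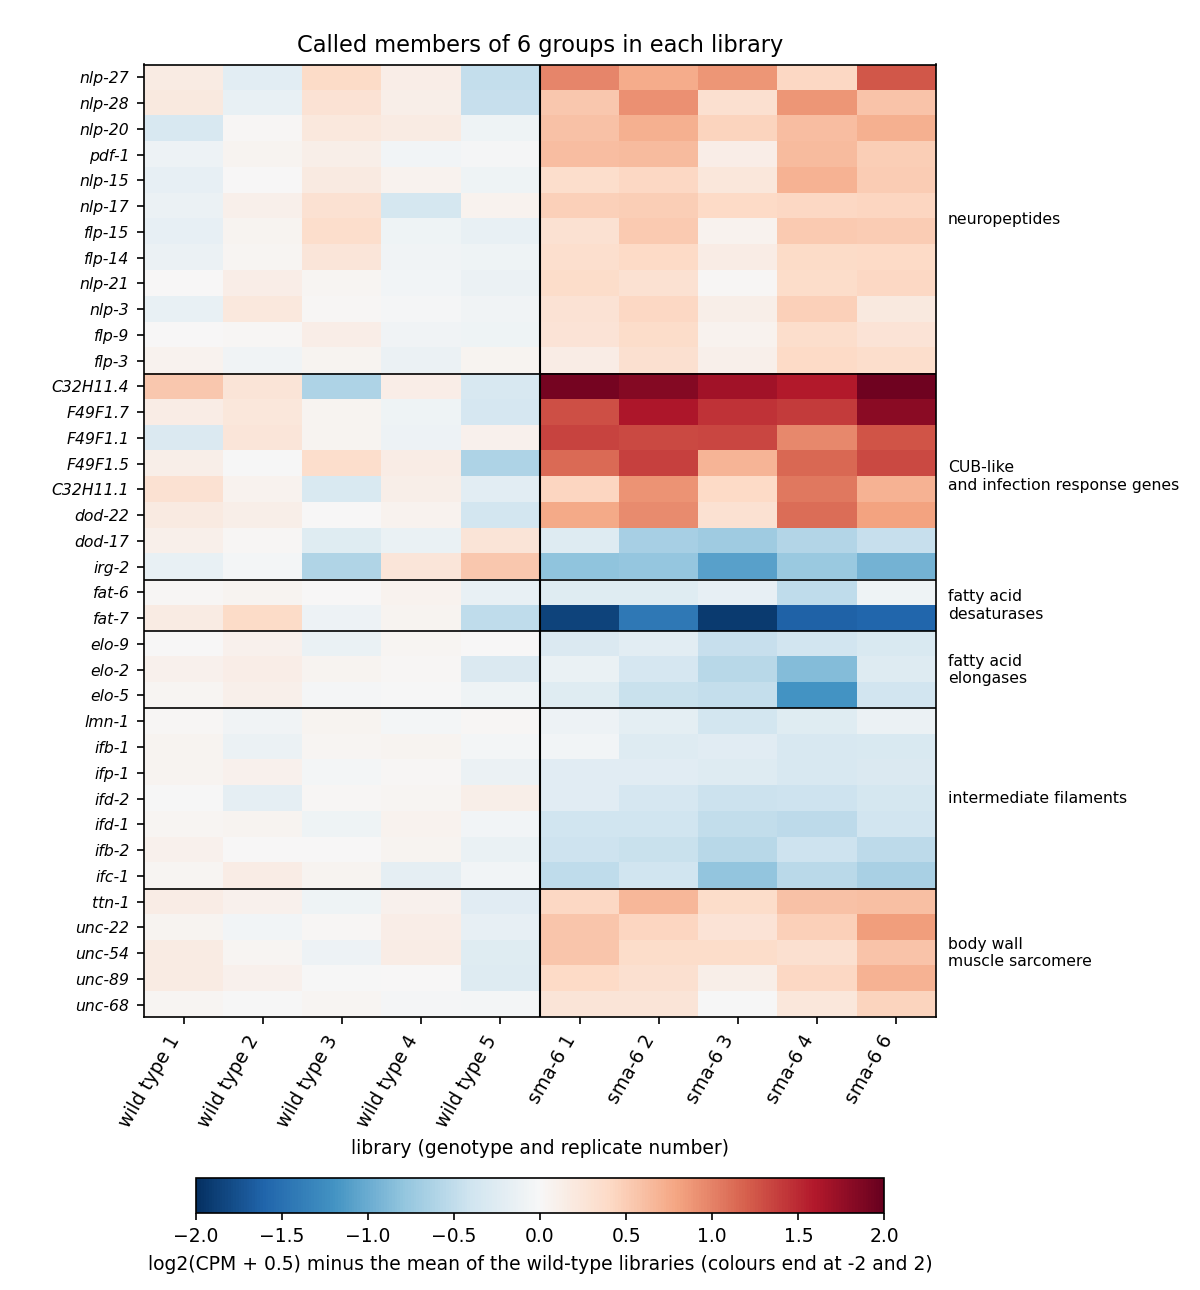
Called members of 6 gene lists in each of the 10 libraries, as log2(CPM + 0.5) minus the mean of the wild-type libraries, in colours that end at -2 and 2. Some neuropeptide genes, such as *flp-14* at 58.4 CPM, are paler in *sma-6* replicate 3 than in the other mutant libraries, but *nlp-27* is palest in replicate 4. *fat-7* is blue in all 5 mutant libraries.

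Several genes of the intestine were lower by small amounts. Of the 6 intestine markers, which include *ges-1*, *vha-6* and *act-5*, 3 were lower and 0 higher. *elt-2*, which encodes the GATA factor of the intestine, stood at 45.2, 44.8, 45.2, 44.4 and 37.9 CPM in the wild type and 39.6, 33.9, 29.1, 30.7 and 36.7 CPM in the mutants (log2 fold change -0.36 ± 0.08 SE, edgeR adjusted p = 0.0137). Wild-type replicate 5 lay below the other wild-type libraries, within the mutant range. *ifb-2*, an intermediate filament gene of the intestinal terminal web, stood at 656, 624, 621, 642 and 563 CPM in the wild type and 464, 453, 422, 464 and 429 CPM in the mutants, and the groups did not overlap (log2 fold change -0.48 ± 0.07 SE, edgeR adjusted p = 0.000379). *pept-1*, the peptide transporter gene, was at 466.8 ± 33.98 CPM (SD) in the wild type and 354 ± 35.3 CPM (SD) in the mutants (log2 fold change -0.40 ± 0.07 SE, edgeR adjusted p = 0.00236). The summed level of the 6 markers was 2734 to 3403 CPM in the wild type and 2602 to 2893 CPM in the mutants, and its part in the changes of lipid, lectin and defence genes was not tested.

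Intermediate filaments as a whole, a list chosen after values were seen, had 7 of 12 lower and 0 higher. *ifc-1* and *ifd-1*, also of the terminal web, were lower in every mutant library (log2 fold change -0.58 ± 0.08 SE, edgeR adjusted p = 0.000117 and log2 fold change -0.44 ± 0.05 SE, edgeR adjusted p = 5.72e-05). *ifb-1*, which anchors the epidermis, was lower by less (log2 fold change -0.23 ± 0.06 SE, edgeR adjusted p = 0.0215), and its call was absent without wild-type replicates 1 or 4 or *sma-6* replicates 2 or 6. Of the class B scavenger receptor genes, likewise chosen afterwards, 4 of 6 were lower, and the count was 2 without wild-type replicate 2. *scav-4* was lower by the most of these (log2 fold change -0.53 ± 0.13 SE, edgeR adjusted p = 0.0161). The genes of the methionine cycle, polyamine and phosphatidylcholine synthesis, again chosen afterwards, had 5 of 14 lower, among them ornithine decarboxylase *odc-1* (log2 fold change -0.46 ± 0.08 SE, edgeR adjusted p = 0.00205) and S-adenosylhomocysteine hydrolase *ahcy-1* (log2 fold change -0.36 ± 0.09 SE, edgeR adjusted p = 0.0285). That count was 2 without *sma-6* replicate 2 and 3 without wild-type replicates 1 or 4 or *sma-6* replicates 4 or 6.

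Detoxification families moved both ways. Of 68 cytochrome P450 genes tested, 5 were higher and 5 lower, and of 62 UDP-glucuronosyltransferase genes 4 were higher and 8 lower. *cyp-35D1* rose from 4.99 ± 0.980 CPM (SD) in the wild type to 10.4 ± 2.16 CPM (SD) in the mutants (log2 fold change 1.05 ± 0.17 SE, edgeR adjusted p = 0.00102), and *cyp-13A12* fell from 9.14 ± 1.45 CPM (SD) in the wild type to 4.32 ± 1.07 CPM (SD) in the mutants (log2 fold change -1.09 ± 0.16 SE, edgeR adjusted p = 0.000291). *ugt-18* rose and *ugt-65* fell (log2 fold change 1.41 ± 0.23 SE, edgeR adjusted p = 0.000854 and log2 fold change -0.69 ± 0.11 SE, edgeR adjusted p = 0.000558). The number of lower UDP-glucuronosyltransferase genes was 5 without wild-type replicates 1 or 5 or *sma-6* replicate 2, and the number of higher ones was 2 without wild-type replicate 3 or *sma-6* replicate 6. Of 5 flavin-containing monooxygenase genes, a list chosen after values were seen, *fmo-2* was higher at low counts (log2 fold change 2.28 ± 0.49 SE, edgeR adjusted p = 0.00811) and *fmo-1* and *fmo-3* lower (log2 fold change -0.44 ± 0.08 SE, edgeR adjusted p = 0.00341 and log2 fold change -0.65 ± 0.11 SE, edgeR adjusted p = 0.000913). Glutathione transferases had 1 of 40 higher and 2 lower, and the higher count was 0 in 7 and the lower count 1 in 8 of the 10 fits without a library.

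The inositol transporter genes *hmit-1.1* and *hmit-1.2*, named after their values were seen, both passed (log2 fold change 1.104 ± 0.26 SE, edgeR adjusted p = 0.0142 and log2 fold change 1.01 ± 0.19 SE, edgeR adjusted p = 0.00370). The first rose from 21.5 ± 8.39 CPM (SD) in the wild type to 46.1 ± 19.1 CPM (SD) in the mutants, with groups that overlapped, and the second from 21.3 ± 5.45 CPM (SD) in the wild type to 42.9 ± 9.83 CPM (SD) in the mutants. Both were higher in *sma-6* mutants than in those of *sma-3* (log2 difference 1.89, edgeR adjusted p = 0.000191 and log2 difference 2.23, edgeR adjusted p = 2.04e-06). Of 10 aquaporin genes, a family taken by its called share, 1 was higher and 1 lower, so that share is not a finding. *aqp-8* was higher, at 70.5, 65.5, 76.2, 62.4 and 42.2 CPM in the wild type and 121, 132, 102, 113 and 116 CPM in the mutants, and *aqp-4* lower (log2 fold change 0.88 ± 0.13 SE, edgeR adjusted p = 0.000396 and log2 fold change -0.48 ± 0.09 SE, edgeR adjusted p = 0.00205).

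Further families of genes sharing a name had called shares of at least 3 times the background, and 1 of them, the MATH domain family, is also part of a fixed list. They were taken by that share, so a high share among them is not a finding. Acid phosphatase (pho) genes had 2 of 11 higher and 2 lower, and *pho-13* fell (log2 fold change -0.83 ± 0.09 SE, edgeR adjusted p = 7.69e-06). The call of *pho-8*, higher in the mutants, was absent in 8 of the 10 fits without a library. Galectin (lec) genes had 3 of 12 lower, and *lec-10* fell from 422 ± 29.1 CPM (SD) in the wild type to 281 ± 40.7 CPM (SD) in the mutants (log2 fold change -0.59 ± 0.09 SE, edgeR adjusted p = 0.000422). Genes of the MATH domain family (math) had 5 of 20 lower, and *math-41* led these (log2 fold change -0.75 ± 0.08 SE, edgeR adjusted p = 1.60e-05). The count over the 53 MATH and BATH domain genes was 1 higher and 5 lower, and the lower count was 3 without wild-type replicates 4 or 5. Secreted immunoglobulin-domain (zig) genes had 2 of 10 lower, *zig-3* (log2 fold change -1.01 ± 0.16 SE, edgeR adjusted p = 0.000796) and *zig-4*. Sodium-calcium exchanger (ncx) genes had 2 of 10 higher and 1 lower. Of the higher ones, the *ncx-9* call was absent in 8 of the 10 fits without a library, and the *ncx-8* call without wild-type replicate 3. Nuclear hormone receptors (5 of 221 higher, 3 lower) and F-box genes (3 of 118 higher, 1 lower) were at or under the background.

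Ribosomal protein and proteasome genes had few calls in edgeR. Of 77 cytosolic ribosomal protein genes 1 was higher and 1 lower, with a median of -0.04. The higher one, *rpl-34*, lies in the chromosome IV segment described below, and *rpl-37* fell from 17.3 ± 1.77 CPM (SD) in the wild type to 7.80 ± 2.06 CPM (SD) in the mutants (log2 fold change -1.15 ± 0.22 SE, edgeR adjusted p = 0.00300). Of 32 proteasome genes 0 were called in edgeR or limma-voom, 9 had an unadjusted edgeR p under 0.05, and DESeq2 called 5 lower. The log2 fold change was below 0 in 31 of the 32, with a median of -0.12. Mitochondrial ribosomal proteins had 1 of 62 higher, and respiratory chain and ATP synthase genes had 2 of 30 higher and 1 lower. These calls were unstable, and none of the 3 respiratory chain and ATP synthase calls was made without wild-type replicate 2, 4 or 5 or *sma-6* replicate 2 or 4. The mitochondrial ribosomal call was absent in 9 of the 10 fits without a library. Without *sma-6* replicate 1 the number of lower cytosolic ribosomal protein genes was 5. Of 42 genes of DNA replication and the cell cycle, *rnr-2*, the small subunit of ribonucleotide reductase, was lower, at 138, 125, 156, 130.4 and 172 CPM in the wild type and 111, 92.1, 86.0, 84.1 and 109 CPM in the mutants (log2 fold change -0.58 ± 0.09 SE, edgeR adjusted p = 0.000756). The 7 germline markers had 0 called in all 3 tools, 1 at an unadjusted edgeR p under 0.05, and a summed level of 197 to 317 CPM in the wild type and 265 to 403 CPM in the mutants.

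Many genes of very long transcripts were higher. Of the 96 tested genes with at least 8 kb of annotated exon, 45 were higher and 1 lower, and 91 had a log2 fold change above 0 (median 0.24). Of the 644 genes between 4 and 8 kb, 33 were higher and 10 lower (median 0.04). For each library, the median over the longest class of log2(CPM + 0.5) minus the gene's mean over the 10 libraries was -0.149 to -0.089 in the wild-type libraries and 0.041 to 0.215 in the mutant libraries, so the groups did not overlap. The part of RNA quality or fragment length in this was not tested.

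**Figure D4:**
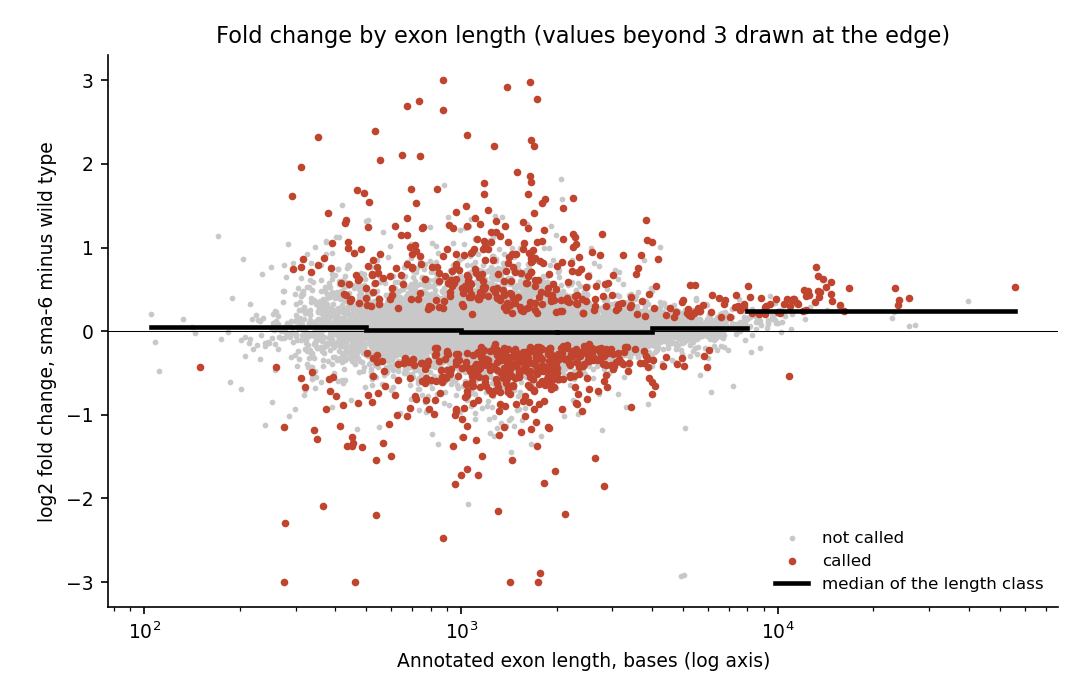
Log2 fold change of each tested gene (*sma-6* minus wild type) against annotated exon length in bases on a log axis, with called genes in red and black lines at the median of each length class. The median is 0.24 in the 96 genes of at least 8 kb and lies between -0.01 and 0.05 in the shorter classes.

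Several muscle and attachment genes have long transcripts. Of 39 sarcomere genes 5 were higher and 0 lower, with a median of -0.03. They were *ttn-1* (titin), *unc-22* (twitchin), *unc-89* (obscurin), *unc-68* (ryanodine receptor) and *unc-54* (myosin heavy chain), each with over 6 kb of exon. *ttn-1* stood at 395, 378, 334, 377 and 303 CPM in the wild type and 477, 563, 458, 536 and 538 CPM in the mutants, higher in every mutant library (log2 fold change 0.52 ± 0.08 SE, edgeR adjusted p = 0.000687). *unc-54* stood at 6445, 5956, 5409, 6383 and 4861 CPM in the wild type and 8519.6, 7452, 7436, 7230.5 and 8563 CPM in the mutants (log2 fold change 0.43 ± 0.08 SE, edgeR adjusted p = 0.00382). With the trend on exon length removed, an alternative chosen after seeing the data, *unc-54* remained called and the other 4 did not, and the log2 fold change of *ttn-1* was -0.0021. Without *sma-6* replicate 6 the count was 3. Among the 5 muscle markers *unc-54* alone was called, and their summed level was 9381 to 12199 CPM in the wild type and 12182 to 14537 CPM in the mutants.

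Of 12 genes of epidermal attachment, chosen after values were seen, *let-805* (myotactin), *mua-3* and *vab-10* (spectraplakin) were higher and *ifb-1* lower. The 3 higher genes have over 12 kb of exon each, and *let-805* alone remained called with the length trend removed. Of 15 basement membrane genes, the laminin gene *epi-1* and the hemicentin gene *him-4* were higher (log2 fold change 0.38 ± 0.08 SE, edgeR adjusted p = 0.00712 and log2 fold change 0.51 ± 0.08 SE, edgeR adjusted p = 0.00102) and the fibulin gene *fbl-1* lower (log2 fold change -0.26 ± 0.07 SE, edgeR adjusted p = 0.0211). With the trend removed *him-4* remained called and *epi-1* did not. With the replicate number as a block as well, over 8 libraries, neither *him-4* nor *let-805* remained called (edgeR adjusted p = 0.116 and 0.0639). The *fbl-1* call was absent without wild-type replicates 2 or 4 or *sma-6* replicates 2 or 3. *him-4* was also 1 of the 2 called of 40 genes on the germline and meiosis list, and it encodes an extracellular matrix protein. The longest genes outside these lists included *dhc-1*, the dynein heavy chain (log2 fold change 0.62 ± 0.10 SE, edgeR adjusted p = 0.000674), which passed in every alternative run.

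A stretch of chromosome IV rose as a block. Between *nlr-1* and *F19B6.1* (WBcel235 chromosome IV, 12170824 to 12336075), 24 genes were tested, of which 22 were higher and 0 lower. The ends were set from the called genes themselves, so these counts are a description. The cause of the rise was not tested, and loss of *sma-6* and other differences of the mutant strain cannot be told apart here. All 24 had a log2 fold change above 0, with a median of 0.97, and their median against *sma-3* mutants was 1.03. In the 100 kb on each side, 43 genes had 0 higher, 1 lower and a median of 0.03. The prolyl 4-hydroxylase gene *phy-2* lies in it, at 97.9, 96.03, 95.2, 97.6 and 99.0 CPM in the wild type and 203, 197, 253, 169 and 198 CPM in the mutants, and so do *rpl-34*, *sre-14*, *dnj-26*, *oac-57* and *oac-58*. These members therefore weigh on the counts of the collagen processing list (2 of 12 higher), the chaperones (1 of 53 higher, 2 lower) and the O-acyltransferases (5 of 24 higher, 0 lower). The O-acyltransferase rises outside it were *oac-20*, *oac-6* and *oac-14* (log2 fold change 1.13 ± 0.19 SE, edgeR adjusted p = 0.00113, log2 fold change 0.82 ± 0.13 SE, edgeR adjusted p = 0.000901 and log2 fold change 0.72 ± 0.18 SE, edgeR adjusted p = 0.0222). The *oac-14* call was absent without wild-type replicates 1, 2 or 3 or *sma-6* replicate 4. Elsewhere the share of called genes ran from 4.62% on chromosome I to 8.37% on chromosome V, and it was 5.85% of the 188 genes within 0.5 Mb of *sma-6*.

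A few genes of low expression were nearly silent in 1 genotype and were chosen after their values were seen. *C08E3.13* had 0 counts in all 5 *sma-6* libraries and 2.16, 2.82, 4.44, 2.78 and 2.46 CPM in the wild-type libraries, where 3 counts correspond to 0.132 to 0.159 CPM per mutant library. *F26G1.10* stood at 2.77, 3.69, 2.82, 2.84 and 2.58 CPM in the wild type and 0.159, 0.316, 0.102, 0.176 and 0.0483 CPM in the mutants, and *scrm-7*, of the scramblase family, at 1.27, 0.876, 0.941, 0.569 and 0.645 CPM in the wild type and 0, 0.0452, 0.153, 0.440 and 0.290 CPM in the mutants. Yolk protein genes, which adults express, gave 0 calls in edgeR, DESeq2 or limma-voom and 2 of 3 tested at an unadjusted edgeR p under 0.05. *vit-2* was at 71.4 CPM and *vit-6* at 80.2 CPM in wild-type replicate 3, against at most 0.885 and 1.83 CPM in the other wild-type libraries. In *sma-6* replicate 3 they stood at 9.37 and 7.95 CPM, against at most 0.317 and 1.11 CPM in the other mutant libraries.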

How the data were processed

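Poly-A RNA of whole L2 larvae was sequenced in 15 libraries, 5 per genotype, and groups and replicate numbers came from the labels. The authors deposited whole-number counts per gene and library for 16259 genes. The table also holds deposited CPM and, for another comparison, log2 fold changes with a p-value and its adjusted form, which were not used here. The submitters' processing notes name bcl2fastq, STAR 2.5.2b, featureCounts 1.5.2 and limma, and the build WBcel235. They do not state the strand setting of the counting, so reads of overlapping or antisense genes, and of near-identical copies, cannot be told apart here.

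Counts were used as deposited in R 4.3.3 with edgeR 4.0.16. The filter was filterByExpr with the 3 genotypes as groups (minimum count 10, minimum total 15), and 13720 genes remained. A quasi-likelihood fit to all 15 libraries with TMM factors and genotype as the only factor gave *sma-6* minus wild type, and *sma-6* minus *sma-3* for named genes. Benjamini-Hochberg adjusted p under 0.05 made a call. Standard errors were derived from the F statistic. Coordinates, biotypes and exon lengths came from Ensembl release 115 (WBcel235), matched by identifier for 16068 genes (98.8%).

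The comparison, the 57 gene lists and the rule for named genes were chosen with earlier results of these data known, and 5 more lists, as well as some genes named as such, after their values were seen. Named genes were *sma-6*, the 12 largest rises and falls described in the text, and tested members of the DBL-1 list. Of other lists, and of name families with at least 10 tested members and at least 3 times the background, every called member was taken where there were at most 6, and otherwise the 3 with the smallest p each way. One pattern of the lists was corrected after values were seen, because it caught a gene of another family. Alternatives covered scaling, filters, DESeq2 1.42.0, limma-voom (limma 3.58.1), the libraries fitted, a replicate block, each library left out, and a lowess trend on exon length.

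Depth was 16.5 to 48.3 M counts per library, and 3 counts correspond to 0.0626 to 0.19 CPM. Depth bounds counting error only, since no molecular identifiers are given. In a test on simulated data for this comparison (13620 genes), 91.9% of 99 genes changed 2-fold and 66% of 100 genes changed 1.5-fold were recovered, and 4.85% of calls were false. The simulated counts were independent between genes and libraries, with no batch, exon length trend or block of neighbouring genes. These shares therefore need not hold for the calls in the real data.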

Additional observations from a re-analysis of the deposited data

Results flagged for a closer look

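In 37 of 448 groups of 5 libraries examined (8.26%), the highest or lowest library of a named gene stood apart from the other 4 by more than Dixon's 95% limit. Chance alone marks about 1 group in 20, and genes that move together are not independent here. Values are in CPM, followed by the range of the other 4 libraries of that genotype. Wild-type replicate 5 held 9 of these values, wild-type replicate 3 and *sma-6* replicate 4 held 8 each, and *sma-6* replicates 1 and 3 held 4 each.

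Wild-type replicate 5 was high at 46.3 for *pqn-67* (23.2 to 28.2), 44.7 for *cutl-15* (32.9 to 35.9), 5.16 for *cyp-13A4* (3.10 to 3.48) and 79.6 for *dnj-25* (69.5 to 71.7). It was high too at 409.6 for *mtrr-1* (293 to 307). Wild-type replicate 5 was low at 37.9 for *elt-2* (44.4 to 45.2), 3.69 for *C44C1.6* (4.93 to 5.18), 2.52 for *C45B2.8* (5.23 to 5.54) and 18.4 for *cox-10* (21.8 to 22.9). Wild-type replicate 3 was high at 4.03 for *T24B8.5* (2.88 to 3.11), 4.44 for *C08E3.13* (2.16 to 2.82), 1.05 for *cyp-37B1* (0.0554 to 0.271) and 22.4 for *vit-1* (4.11 to 6.04). It was high too at 80.2 for *vit-6* (0.459 to 1.83), 71.4 for *vit-2* (0.104 to 0.885), 809.9 for *lbp-6* (670.1 to 681) and 31.7 for *lips-17* (23.9 to 25.8). Wild-type replicate 4 was high at 41.6 for *srw-85* (34.9 to 36.2). Wild-type replicate 1 was high at 8.80 for *far-3* (2.87 to 4.24). Wild-type replicate 2 was high at 3.69 for *F26G1.10* (2.58 to 2.84). Mutant replicate 4 was high at 72.1 for *sma-10* (48.1 to 54.6), 6.61 for *cyp-37B1* (0.635 to 2.21), 13.7 for *Y69H2.9* (10.9 to 11.7) and 39.8 for *dbl-1* (25.5 to 27.5). It was high too at 16.1 for *zig-4* (8.88 to 10.6). Mutant replicate 4 was low at 3.96 for *F49F1.1* (4.97 to 5.34), 34.0 for *ugt-48* (43.6 to 46.7) and 226 for *asp-10* (319 to 356). Mutant replicate 1 was high at 56.3 for *lips-11* (13.8 to 21.5), 351 for *lec-10* (251 to 279) and 287 for *atp-4* (247 to 254). Mutant replicate 1 was low at 25.7 for *math-26* (27.4 to 28.02). Mutant replicate 3 was high at 7.95 for *vit-6* (0.617 to 1.11) and 9.37 for *vit-2* (0 to 0.317). Mutant replicate 3 was low at 58.4 for *flp-14* (66.8 to 70.0) and 35.3 for *nlp-21* (43.2 to 46.3). Mutant replicate 6 was high at 0.772 for *nas-10* (0 to 0.220).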

How the results depend on the processing

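The number of genes changed in *sma-6* mutants against wild type was 892, and it stayed within 1.5 times that count in every alternative run. It was 895 with RLE factors, 845 with library totals, 846 without a filter, 842 among genes of mean log2 CPM 1 or more, 838 in the 10 libraries, 910 in limma-voom, 1295 in DESeq2 and 890 with the exon length trend removed. DESeq2 called 729 lower, against 481. Library totals made 54.7% of calls higher, against 46.1%. Without 1 library the count ran from 613 to 865, 288 to 392 higher and 325 to 485 lower. Of 214 named genes called, 121 kept the call in every alternative that gave a value.

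Same-numbered wild-type and mutant libraries had correlated deviations of 0.127, 0.109, 0.0936 and 0.0588. The labels do not state whether a shared number marks a shared batch or day, and this was not tested. A replicate block over the 8 libraries numbered 1 to 4 called 673 genes, 313 higher and 360 lower, and the same libraries without the block 635. With the block and the length trend removed 733 passed. The neuropeptide count was 3 higher and 1 lower with the block, 3 higher without it in those 8 libraries, and 5 higher with 3 lower under the block with the trend removed. Collagens had 6 higher and 13 lower with the block, and DESeq2 called 13 lower. The lower count of cuticlins was 0 with the block. Over all 10 libraries, wild-type replicate 2 correlated best with *sma-6* replicate 6 (0.122) and *sma-6* replicate 4 with wild-type replicate 5 (0.130), and the other libraries numbered 1 to 4 with their own number.

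Signs turned for few genes, and the cause was not tested. With the length trend removed *ttn-1*, *unc-68* and *sma-9* came to -0.0021, -0.039 and -0.024 on the log2 scale. With the block as well, *unc-89*, *unc-68*, *sma-9* and *vab-10* came to -0.066, -0.063, -0.047 and -0.022. Without 1 library, *vit-6* ran from -4.31 to 1.16 and *vit-2* from -7.01 to 2.495, lowest without *sma-6* replicate 3 and highest without wild-type replicate 3. *daf-4* ran from -0.0020 to 0.085, lowest without *sma-6* replicate 4. Genes with few counts, such as *cnc-2* and *fmo-2*, carry wide standard errors.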
